A study of Rattus norvegicus with 6 samples.

Results

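Expression of 40 genes of fatty acid oxidation and of the peroxisome was examined in glomerular isolates of the rat kidney. The genes were chosen by name for their part in the pathway, with earlier results of these data known, as were the other gene lists below. Shares over all genes set beside them therefore describe the lists and do not test them. Each gene was read from 1 probeset, the brightest of those annotated with that symbol alone. By this rule 38 of the 40 genes had a value, out of 14506 genes measured in all. Acaa1a and Decr2 lie only on probesets shared with other genes and were not analysed here. Total RNA came from adult male Sprague-Dawley rats without treatment or cell culture, and each isolate was hybridized to 1 Affymetrix whole-transcript array. There were 3 PEC-enriched isolates, which are glomeruli trapped on a 90 µm sieve, enriched in capsulated ones but holding decapsulated ones too, and carry the parietal epithelial cells (PECs) that line Bowman's capsule. The other 3 were PEC-deprived isolates, which are mainly decapsulated glomeruli collected on a 75 µm sieve. Preparations came from individual rats, with 3 animals given for them, and it is not stated whether both fractions came from the same 3. The isolates are mixtures: besides PECs they hold podocytes, endothelial and mesangial cells, and the authors counted tubular fragments in them. The share of such fragments varied more among the 75 µm than among the 90 µm preparations, and the counts are not linked to single arrays. In such bulk RNA, fewer cells of a type and less RNA per cell cannot be told apart. The values are log2 RMA expression values, and every difference given here is the PEC-enriched mean minus the PEC-deprived mean on the log2 scale. SE is the standard error of such a difference from limma, and the small number of arrays limits its precision.

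Fatty acids enter the cell on transport and binding proteins and are activated to acyl-CoA. Long chains are then carried into mitochondria on carnitine and shortened there by cycles of dehydrogenation, hydration, a further dehydrogenation and thiolytic cleavage, with electrons passing through electron transfer flavoprotein to the respiratory chain. Peroxisomes shorten very long and branched chains, remove single carbons from branched chains by alpha-oxidation, and break down the hydrogen peroxide that results. The nuclear receptor PPARα, encoded by Ppara, controls many of these genes. In the kidney the proximal tubule is known for its reliance on fatty acid oxidation and for its many mitochondria and peroxisomes.

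Most of the pathway had somewhat higher means in PEC-enriched isolates than in PEC-deprived isolates, and most of these differences were well below 2-fold. Of the 38 measured genes, 33 were higher on average and 5 lower, while 44.8% of all genes were higher and 55.2% lower. Their median log2 fold change was 0.23, with quartiles of 0.14 and 0.40, against a median of -0.02 over all genes. In 17 genes the lowest PEC-enriched array still exceeded the highest PEC-deprived array, a share of 44.7% against 9.68% of all genes, and the reverse held in 0 genes, against 9.0% of all genes. The methods of the study set the threshold at an adjusted p of 0.01. By limma 0 of the 38 genes passed it, and so did 0 of all 29215 probesets (0%). The study itself, with its own Bayesian t-test, reported differential genes at that threshold, Fabp3 and Phyh among them. The smallest limma adjusted p among the 38 was 0.159. At an unadjusted p under 0.05 limma gave 17 genes higher and 0 lower, against 7.96% and 5.65% of all genes. A regularised Bayesian t-test of the kind named in the study's methods called 2 of the 38 genes higher, Fabp3 and Phyh, and 0 lower, against 1.41% and 0.234% of all genes. On simulated data this test called more unchanged probesets than its threshold allows, so its adjusted p-values here may be too small. The simulation took the spread estimated for each probeset as its true spread, so it cannot settle how far this holds for these arrays. In limma the count at an unadjusted p under 0.05 was 8 without PEC-deprived replicate 2, 9 without PEC-deprived replicate 3 and 9 without PEC-enriched replicate 2. In these fits 8.78%, 9.74% and 7.98% of all genes had such a p in either direction.

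**Figure D1:**
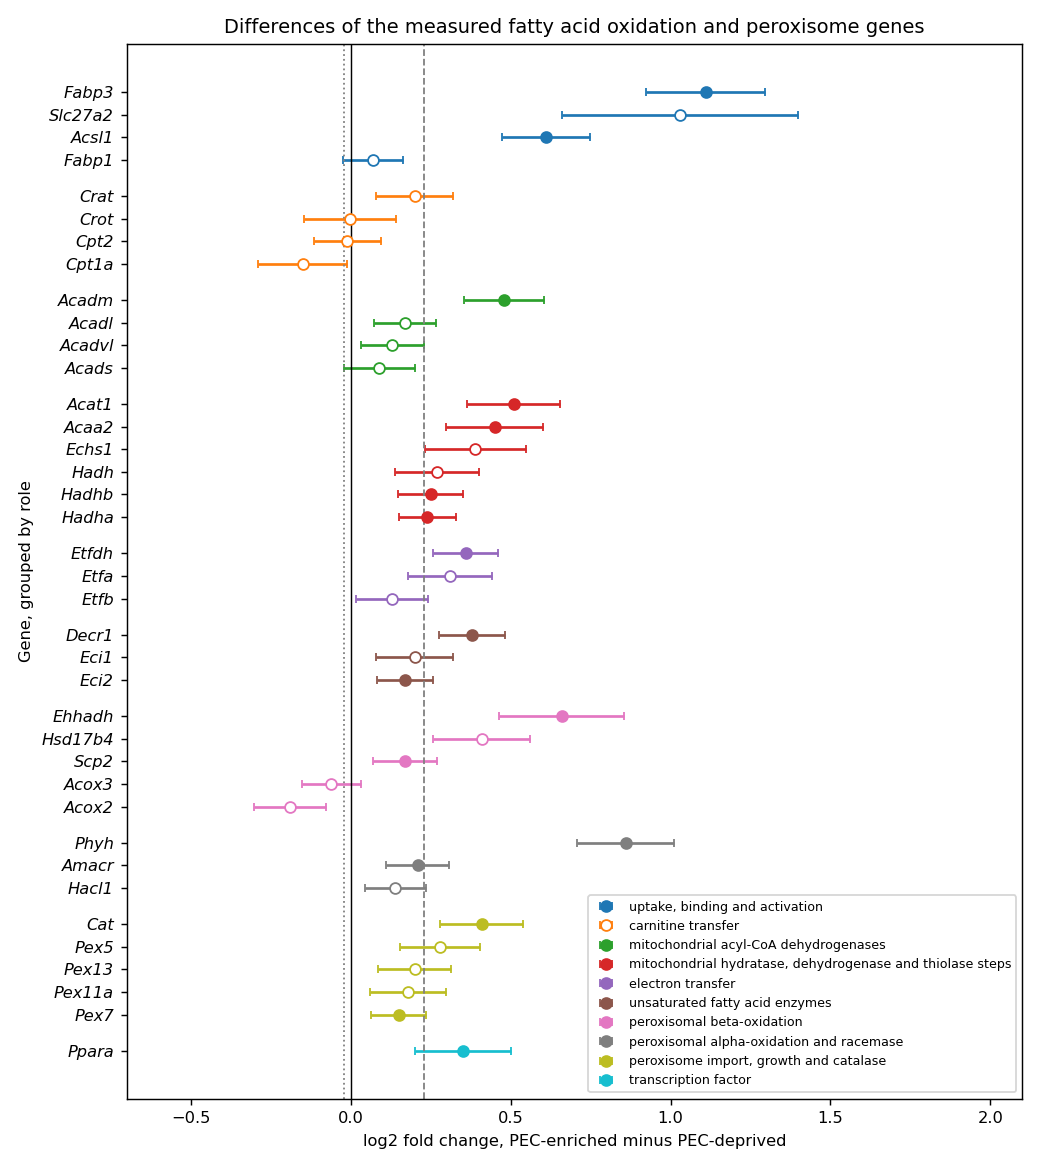
log2 fold change (x axis, PEC-enriched minus PEC-deprived) of each of the 38 measured genes (y axis, grouped by role), with bars of 1 standard error from limma. Filled points mark genes whose 3 PEC-enriched and 3 PEC-deprived arrays do not overlap; the dashed line is the median of the 38 genes (0.23) and the dotted line that of all genes (-0.02). Fabp3, Slc27a2 and Phyh lie farthest to the right, and the carnitine transfer genes lie around 0.

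Of the 38 genes, the 2 with the largest differences belonged to uptake and activation. Fabp3, the heart-type fatty acid binding protein, had values of 8.25, 8.71 and 8.24 on the PEC-enriched arrays and of 7.59, 6.96 and 7.32 on the PEC-deprived arrays. The groups were well separated, and every PEC-deprived array lay below every PEC-enriched one. The log2 fold change was 1.11, or 2.15-fold (SE 0.186, adjusted p = 0.159 by limma), and the regularised test gave an adjusted p of 0.000385. Slc27a2, a very long chain acyl-CoA synthetase that also takes up fatty acids, had a log2 fold change of 1.03 with a much larger SE of 0.369. Its values were 9.16, 9.83 and 9.02 on the PEC-enriched arrays and 9.09, 7.54 and 8.29 on the PEC-deprived arrays, given here because the groups differed so unevenly. PEC-deprived replicate 1 lay among the PEC-enriched arrays, so the groups overlapped, and the difference was 1.42 without that array, 0.64 without PEC-deprived replicate 2 and 0.78 without PEC-enriched replicate 2. Acsl1, the long chain acyl-CoA synthetase that activates fatty acids, had a log2 fold change of 0.61 (SE 0.137, adjusted p = 0.197 by limma) with no overlap. Fabp1, the liver-type binding protein, had values of 3.87, 3.77 and 3.98 on the PEC-enriched and 3.73, 3.80 and 3.85 on the PEC-deprived arrays. The groups overlapped, and the difference of 0.07 (SE 0.095) was smaller than its error. Its values sat near the lower end of the deposited values, which run from 2.13 to 13.87, and without detection calls it is unknown whether they exceed background.

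**Figure D2:**
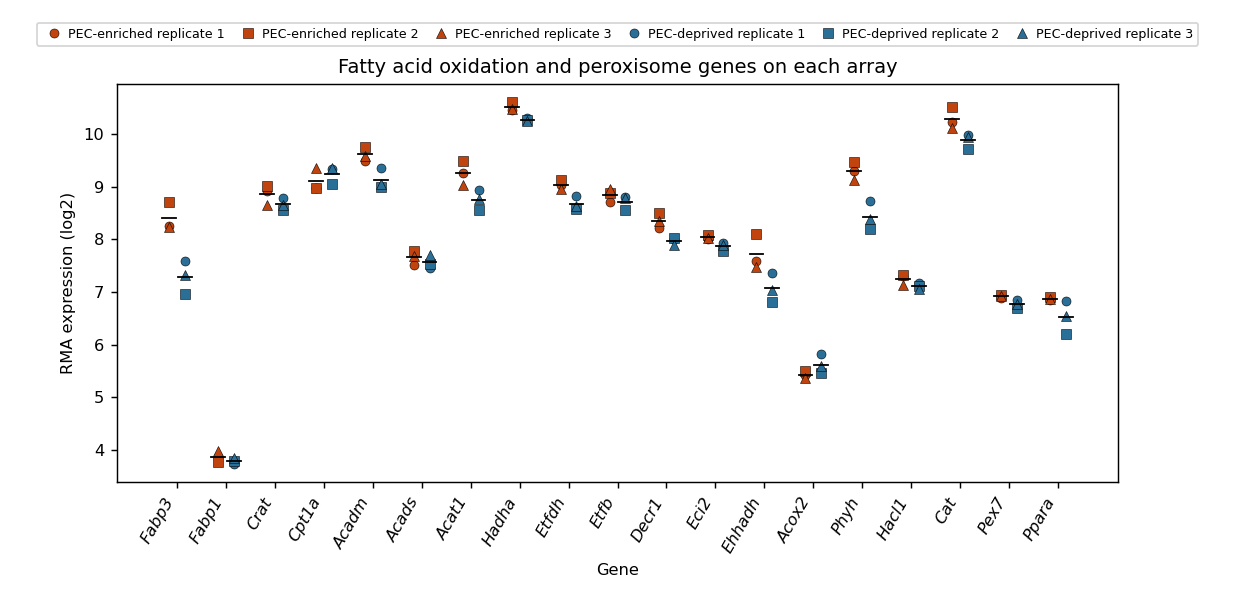
RMA expression (y axis, log2) on each of the 6 arrays for the gene with the highest and the gene with the lowest log2 fold change of each role (x axis). Points are single arrays, colour and shape give isolate and replicate, and lines are means of 3 arrays; heights of different genes are on different probesets and are not to be compared. Fabp3 shows the widest gap between the groups and Fabp1 almost none.

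Promoters were searched because PPARα binds a direct repeat of the nuclear receptor motif AGGTCA, and because these genes stood higher together. RefSeq promoter sequences of the GRCr8 assembly, from 250 bases before to 50 bases after the start site, were matched for 35 of the 38 genes. Acadl, Acaa2 and Decr1 had no entry. Both strands were searched. The direct repeat, 2 copies of AGGTCA with 1 base between, was in 0 of the 35 and in 0.0229% of all 21851 protein-coding promoters. With 1 free base in each copy, as 2 copies of AGGNCA with 1 base between, it was in 1 of the 35, Fabp1, and in 0.362% of all promoters. The single motif AGGTCA, which the first repeat contains, and the second in part, was in 10 of the 35 (28.6%) and in 14.2% of all promoters. Its extended form CAAAGGTCA, which contains it, was in 2 of the 35, Slc27a2 and Amacr, and in 0.339% of all. The GC box GGGCGG was in 25 (71.4%) against 41.8% of all, CCAAT in 12 (34.3%) against 38.0%, and TATAAA in 2 (5.71%) against 13.0%. Such matches describe the letters of a window and are not measured binding sites. The stretches that hold the repeat or the extended motif are shown on the plus strand, which is the coding strand of all 3 genes, with the matching letters in capitals. Counted from the start site they cover positions -85 to -57 in Fabp1, -100 to -41 in Slc27a2 and -230 to -171 in Amacr, and a further RefSeq model of Fabp1 starts upstream of its window.
Fabp1, chr4:104749255-104749283: acaatcacTGACCTATGGCCTatatttga
Slc27a2, chr3:134258001-134258060: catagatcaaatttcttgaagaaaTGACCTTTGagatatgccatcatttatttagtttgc
Amacr, chr2:61673105-61673164: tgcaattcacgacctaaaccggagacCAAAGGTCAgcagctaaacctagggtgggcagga
The gene with the repeat, Fabp1, had nearly the same level in both isolates, but it is unknown whether its low values exceed background. The 2 genes with the extended motif had log2 fold changes of 1.03 (SE 0.369) for Slc27a2, whose groups overlapped, and 0.21 (SE 0.0986) for Amacr. Whether a motif goes with the size of a difference was not tested.

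Carnitine transfer genes had close to the same means in both isolates. Crat, the carnitine acetyltransferase, had values of 8.91, 9.02 and 8.66 on the PEC-enriched arrays and of 8.79, 8.55 and 8.66 on the PEC-deprived arrays. The groups overlapped, with a log2 fold change of 0.20 (SE 0.119, adjusted p = 0.67 by limma). Cpt1a, which makes the long chain acylcarnitine at the outer mitochondrial membrane and is the regulated entry step, had values of 8.98, 8.97 and 9.36 against 9.34, 9.05 and 9.36. Its mean was the lower one in PEC-enriched isolates, by a log2 fold change of -0.15 (SE 0.14, adjusted p = 0.816 by limma), and the groups overlapped. Cpt2, the inner membrane partner, stood at -0.01 (SE 0.105), and Crot, the peroxisomal carnitine octanoyltransferase, at -0.00185 (SE 0.144). Of the 4 genes 0 had an unadjusted p under 0.05 by limma, against 7.96% of all genes higher and 5.65% lower. Groups without overlap were found in 0 of the 4, against 9.68% of all genes with PEC-enriched arrays above and 9.0% below. With shares this small, counts of 0 in 4 genes say little. The standard errors leave room for small differences of either sign. Cpt2 and Crot changed sign when single arrays were left out.

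Each of the 4 mitochondrial acyl-CoA dehydrogenases was higher on average in PEC-enriched isolates, but of these only the medium chain enzyme had groups without overlap. Acadm, which starts the cycle on medium chains, had values of 9.49, 9.76 and 9.59 on the PEC-enriched arrays and of 9.35, 9.0 and 9.05 on the PEC-deprived arrays. The log2 fold change was 0.48, or 1.40-fold (SE 0.124, adjusted p = 0.234 by limma). For Acads, the short chain enzyme, the values were 7.51, 7.78 and 7.69 against 7.46, 7.53 and 7.71, a difference of 0.09 (SE 0.111). These groups overlapped, as did those of Acadl and Acadvl, the enzymes of long and very long chains, with log2 fold changes of 0.17 and 0.13. Differences between the enzymes were not tested against each other.

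The later steps of the mitochondrial cycle had higher means in each of 6 genes, with 0 past the adjusted threshold, and a median log2 fold change of 0.33 and a range of 0.24 to 0.51. Acat1, the thiolase that splits acetoacetyl-CoA, had values of 9.26, 9.49 and 9.04 on the PEC-enriched arrays and of 8.94, 8.55 and 8.77 on the PEC-deprived arrays. Every PEC-enriched array lay above, and the log2 fold change was 0.51 (SE 0.146, adjusted p = 0.283 by limma). Acaa2, the thiolase of longer acyl chains, had a log2 fold change of 0.45 (SE 0.152), and its groups just missed overlapping, with 9.27 on PEC-enriched replicate 1 and on PEC-deprived replicate 1 after rounding. Echs1, the short chain enoyl-CoA hydratase, stood at 0.39 and Hadh, the short chain hydroxyacyl-CoA dehydrogenase, at 0.27, both with overlapping groups.

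Hadha and Hadhb encode the alpha and beta subunits of the mitochondrial trifunctional protein, which joins the last steps for long chains in 1 complex. Hadha had values of 10.46, 10.61 and 10.48 on the PEC-enriched arrays and of 10.30, 10.27 and 10.25 on the PEC-deprived arrays. The groups did not overlap, and the log2 fold change was 0.24 (SE 0.088, adjusted p = 0.372 by limma). A second probeset of Hadha gave 0.18 (SE 0.0971), again without overlap. Hadhb had almost the same difference, 0.25 (SE 0.102, adjusted p = 0.439 by limma), and no overlap. The pair is read in opposite directions from start sites that lie 301 bases apart on chromosome 6. Most of the sequence between them is shown because it precedes both genes. It is written on the plus strand that Hadha is read from, with a GC box match, here as its reverse complement, in capitals.
Hadha and Hadhb, chr6:31907558-31907750: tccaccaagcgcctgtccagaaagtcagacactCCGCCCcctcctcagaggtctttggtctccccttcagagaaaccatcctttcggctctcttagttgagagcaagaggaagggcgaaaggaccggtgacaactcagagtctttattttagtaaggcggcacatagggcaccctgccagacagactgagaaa

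Electron transfer genes had higher means as well, each by less than 1.3-fold and with 0 of 3 past the adjusted threshold. Etfdh, which hands electrons from the flavoprotein to ubiquinone, had values of 9.03, 9.13 and 8.96 on the PEC-enriched arrays and of 8.82, 8.58 and 8.64 on the PEC-deprived arrays. The groups did not overlap, and the log2 fold change was 0.36, or 1.28-fold (SE 0.101, adjusted p = 0.277 by limma). The flavoprotein subunits had overlapping groups. Etfa stood at 0.31 (SE 0.131), and Etfb had values of 8.71, 8.89 and 8.95 against 8.81, 8.55 and 8.79, a difference of 0.13 (SE 0.112). Among enzymes that prepare unsaturated chains, Decr1, the mitochondrial 2,4-dienoyl-CoA reductase, had values of 8.21, 8.50 and 8.35 on the PEC-enriched and 8.0, 8.02 and 7.89 on the PEC-deprived arrays. Its groups did not overlap, with a log2 fold change of 0.38 (SE 0.104, adjusted p = 0.264 by limma). Eci2, an enoyl-CoA isomerase, had values of 8.01, 8.08 and 8.03 against 7.93, 7.78 and 7.90, a small difference of 0.17 (SE 0.0888) that was nevertheless without overlap. Eci1, the mitochondrial isomerase, stood at 0.20 with overlapping groups.

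Peroxisomal beta-oxidation was divided. Ehhadh, the bifunctional enzyme of the classical peroxisomal cycle, had values of 7.59, 8.11 and 7.48 on the PEC-enriched arrays and of 7.37, 6.81 and 7.03 on the PEC-deprived arrays. The groups did not overlap, though PEC-deprived replicate 1 came close, and the log2 fold change was 0.66, or 1.58-fold (SE 0.196, adjusted p = 0.305 by limma). Hsd17b4, the second bifunctional enzyme, which handles branched chains and bile acid precursors, stood at 0.41 (SE 0.152) with overlap. Scp2, whose gene also encodes a peroxisomal thiolase, stood at 0.17 (SE 0.0987) without overlap. The 2 acyl-CoA oxidases measured had lower means. Acox2, the oxidase of branched chains and bile acid precursors, had values of 5.43, 5.50 and 5.37 on the PEC-enriched and 5.82, 5.46 and 5.59 on the PEC-deprived arrays, with overlap and a log2 fold change of -0.19 (SE 0.112, adjusted p = 0.667 by limma). Acox3, the pristanoyl-CoA oxidase, stood at -0.06 (SE 0.0927).

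Phyh, the hydroxylase that begins alpha-oxidation of phytanic acid, had the largest difference among the alpha- and beta-oxidation genes of the peroxisome measured here. Its values were 9.29, 9.47 and 9.13 on the PEC-enriched arrays and 8.72, 8.20 and 8.38 on the PEC-deprived arrays. The groups did not overlap, and the log2 fold change was 0.86, or 1.82-fold (SE 0.151, adjusted p = 0.162 by limma), with an adjusted p of 0.000529 in the regularised test. Hacl1, the lyase that acts next in the same route, had values of 7.31, 7.32 and 7.14 against 7.18, 7.11 and 7.05. Its difference was only 0.14 (SE 0.0945), with overlap. Amacr, the racemase that makes branched chains fit for beta-oxidation, stood at 0.21 (SE 0.0986) without overlap.

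Genes of peroxisome upkeep had slightly higher means in each of 5 genes, with 0 past the adjusted threshold. Cat, the catalase that removes hydrogen peroxide, had values of 10.23, 10.52 and 10.12 on the PEC-enriched arrays and of 9.99, 9.72 and 9.95 on the PEC-deprived arrays. The groups did not overlap, and the log2 fold change was 0.41, or 1.32-fold (SE 0.13, adjusted p = 0.327 by limma). Pex7, the import receptor for proteins with an amino-terminal signal, had values of 6.89, 6.95 and 6.93 against 6.85, 6.70 and 6.77, a difference of 0.15 (SE 0.0872) without overlap. Pex5, the receptor for the carboxy-terminal signal, stood at 0.28, the docking protein Pex13 at 0.20 and Pex11a, which takes part in peroxisome division, at 0.18, all with overlap. Ppara had values of 6.85, 6.91 and 6.86 on the PEC-enriched arrays and of 6.83, 6.21 and 6.54 on the PEC-deprived arrays. The 3 PEC-enriched values were nearly equal, and PEC-deprived replicate 1 fell just short of them. The log2 fold change was 0.35 (SE 0.15, adjusted p = 0.465 by limma), and it was 0.50 without PEC-deprived replicate 1 and 0.19 without PEC-deprived replicate 2.

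The arrays of a group did not stand at 1 level in these genes. PEC-enriched replicate 2 was the highest of its group in 30 of the 38 genes (78.9%, against 36.7% of all genes), and PEC-deprived replicate 1 the highest of its group in 32 (84.2%, against 36.2% of all genes). PEC-deprived replicate 2 was the lowest of its group in 25 (65.8%, against 37.8%). Relative to each gene's mean over the 6 arrays, the median of the 38 genes was 0.06, 0.24 and 0.08 on the PEC-enriched arrays and -0.02, -0.22 and -0.14 on the PEC-deprived arrays. The groups were thus apart by little more than the distance between arrays of 1 group. Of the 16 genes with a higher mean but overlapping groups, PEC-deprived replicate 1 lay within the PEC-enriched range or above it in 14. Without that array the median log2 fold change was 0.27, and in 27 of the 38 genes both groups were apart with the PEC-enriched arrays above, against 15.1% of all genes on the same 5 arrays.

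Marker lists of other cells stood at different levels on the same arrays. All 27 measured proximal tubule markers were higher on average in PEC-enriched isolates, and their median log2 fold change was 1.01. On the 6 arrays their median relative level was 0.32, 0.92 and 0.19 in PEC-enriched and 0.16, -1.15 and -0.46 in PEC-deprived isolates, so that PEC-enriched replicate 2 and PEC-deprived replicate 1 were again the highest of their groups. PEC-deprived replicate 1 was the highest of its group in 27 of 27 of these markers. Thick ascending limb markers had a median of 1.45 (10 of 10 higher), distal tubule and collecting duct markers one of 0.58 (11 of 13 higher) and PEC markers one of 0.63 (14 of 14 higher). PEC markers stood at 0.24, 0.45 and 0.33 against -0.09, -0.44 and -0.27, with the same arrays highest as for the proximal tubule markers. Thick ascending limb markers (1.07, 0.77 and 0.52) and distal tubule and collecting duct markers (0.41, 0.23 and 0.29) were instead highest on PEC-enriched replicate 1. In the PEC-deprived group, replicate 1 was the highest for these lists too. The 11 podocyte markers had a median of 0.05, and the 12 mesangial and smooth muscle markers one of -0.19, with 5 higher and 7 lower. The 17 endothelial markers, at -0.47, and the 16 leukocyte markers, at -0.40, had a lower mean in each gene. Both lists were low on PEC-enriched replicates 2 and 3 but not on PEC-enriched replicate 1. The endothelial markers stood at 0.15, -0.38 and -0.46 on the PEC-enriched arrays and at 0.16, 0.26 and 0.27 on the PEC-deprived arrays, and the leukocyte markers at 0.19, -0.47 and -0.31 against 0.23, 0.05 and 0.29. The part of tubule RNA in the differences of the fatty acid oxidation genes was not tested.

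**Figure D3:**
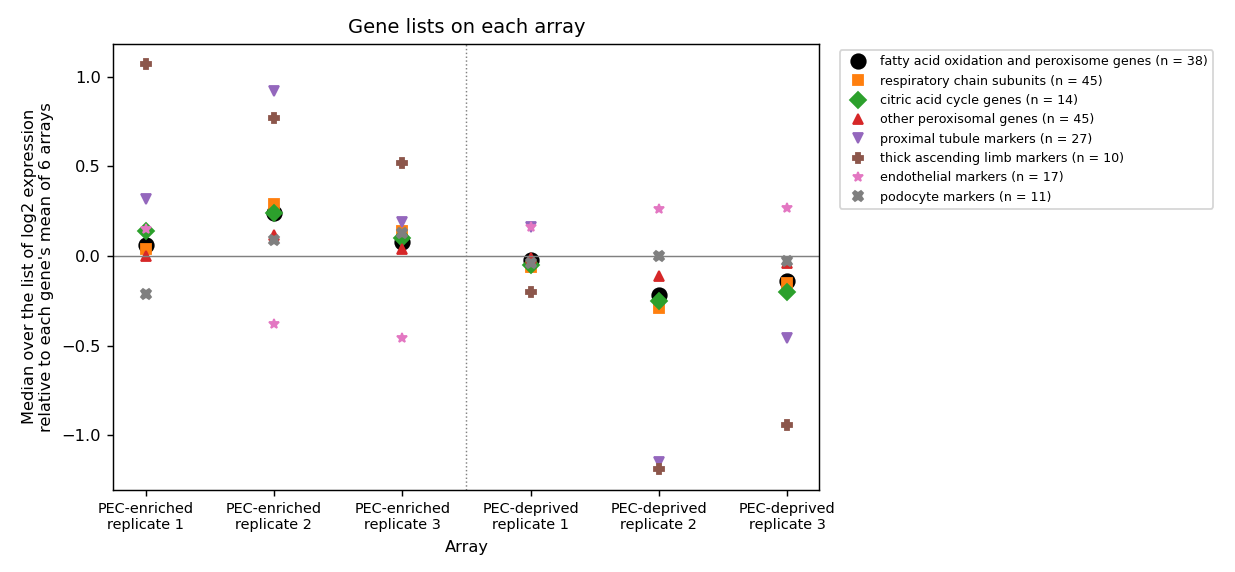
Median over the genes of a list of log2 expression relative to each gene's mean of the 6 arrays (y axis) on each array (x axis); each symbol is 1 list, with its number of genes. The fatty acid oxidation and peroxisome genes lie at 0.06, 0.24 and 0.08 on the PEC-enriched arrays and at -0.02, -0.22 and -0.14 on the PEC-deprived ones. They lie close to the respiratory chain and citric acid cycle genes, and their range is narrower than that of the proximal tubule markers. On PEC-deprived replicate 1 those markers lie at 0.16, on the other side of 0 from the set.

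Other genes of the pathway were taken from lists written by role. Of 27 further genes of mitochondrial fatty acid oxidation, 24 were higher on average and 3 lower, and the median log2 fold change was 0.24. Acsm3, a medium chain acyl-CoA synthetase, had values of 7.69, 7.95 and 7.41 on the PEC-enriched and 7.34, 5.38 and 6.66 on the PEC-deprived arrays and a log2 fold change of 1.23 (SE 0.427, adjusted p = 0.36 by limma). Its groups did not overlap, although PEC-deprived replicate 1 came close to the lowest PEC-enriched array. Gcdh, the glutaryl-CoA dehydrogenase, stood at 0.56. Of 45 further peroxisomal genes, 31 were higher on average and 14 lower, with a smaller median of 0.10. Highest among them were Dao, the peroxisomal D-amino acid oxidase, at 1.39 (SE 0.354, adjusted p = 0.232 by limma), and Hao2, a hydroxyacid oxidase, at 1.07 (SE 0.332, adjusted p = 0.322 by limma), both without overlap. All 6 measured genes of ketone body use and of monocarboxylate transport were higher on average, with a median of 0.60. Slc16a7, a monocarboxylate transporter, stood at 0.99 (SE 0.147, adjusted p = 0.152 by limma). In each list given here limma called 0 genes at an adjusted p under 0.01.

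Receptors, partners and known targets of PPARs outside the set were divided, with 14 of 26 higher and a median of 0.01. The fatty acid hydroxylases Cyp4a1 and Cyp4a8 had log2 fold changes of 1.18 (SE 0.363) and 1.07 (SE 0.384), with overlap. Hnf4a, a nuclear receptor of the proximal tubule, stood at 0.98 (SE 0.279, adjusted p = 0.281 by limma) without overlap. Other binding and uptake genes lay close to all genes, with 10 of 15 lower, against 55.2% of all genes, and a median of -0.05. In 2 of the 15 the PEC-enriched arrays all lay above and in 2 all below, against 9.68% and 9.0% of all genes. Cubn, the cubilin receptor of the proximal tubule, had values of 8.96, 9.40 and 8.37 on the PEC-enriched and 8.34, 7.17 and 8.07 on the PEC-deprived arrays, a log2 fold change of 1.05 (SE 0.334, adjusted p = 0.325 by limma). Its groups did not overlap, though the lowest PEC-enriched and the highest PEC-deprived arrays nearly met. Cd36, a fatty acid translocase also known from endothelium and macrophages, had values of 7.80, 7.70 and 8.17 on the PEC-enriched and 8.50, 8.65 and 8.57 on the PEC-deprived arrays, a log2 fold change of -0.68 (SE 0.133, adjusted p = 0.166 by limma). Every PEC-enriched array lay below, the reverse of Fabp3 and Acsl1. Genes of fatty acid synthesis and desaturation had 13 of 17 higher means and a median of 0.09. Fads2, the delta-6 desaturase, stood at 1.10 (SE 0.271, adjusted p = 0.225 by limma) without overlap.

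Respiratory chain subunits and citric acid cycle genes, which use the products of fatty acid oxidation, had medians close to that of the set. The 45 subunits had a median of 0.30, with 43 higher and 27 without overlap, all of these above, and the 14 citric acid cycle genes one of 0.32, with 14 higher and 11 without overlap, also above, against 9.68% of all genes. On the 6 arrays the subunits stood at 0.04, 0.29 and 0.14 in PEC-enriched and at -0.06, -0.29 and -0.15 in PEC-deprived isolates, nearly the values of the fatty acid oxidation genes. Differences between lists were not tested, since genes measured on the same arrays are not replicates of each other.

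**Figure D4:**
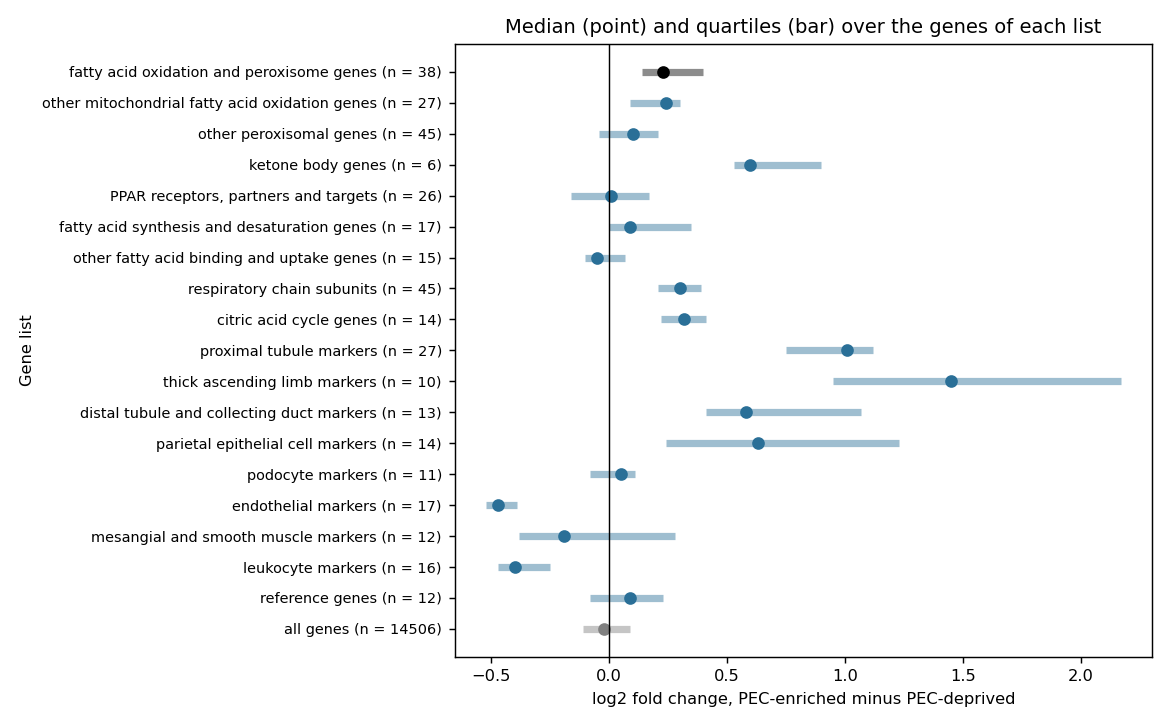
Median (point) and quartiles (bar) of the log2 fold change (x axis, PEC-enriched minus PEC-deprived) over the measured genes of each list (y axis, with the number of genes). The fatty acid oxidation and peroxisome genes, with a median of 0.23, lie beside the other mitochondrial fatty acid oxidation genes at 0.24 and the respiratory chain subunits at 0.30, between all genes at -0.02 and the proximal tubule markers at 1.01.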

How the data were processed

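RNA of 6 glomerular isolates was hybridized to Affymetrix arrays. Background adjustment, quantile normalization and probeset summary were done by the authors with RMA, a tool that the submitters' notes list too, and neither version nor genome build is named in these sources. Each deposited value is a log2 value of 1 probeset on 1 array. The base was settled from the values, whose maximum of 13.87 exceeds 11.09, the natural log of the largest 16-bit intensity. Of 29215 probesets, 15310 have 1 gene symbol, 323 several and 13582 none. Gene symbols came from the platform annotation, updated through Entrez IDs.

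Groups were compared over all probesets in R 4.3.3 by limma 3.58.1, with lmFit, then eBayes, a two-sided test without covariates, p-values adjusted by Benjamini-Hochberg and called under 0.01. The regularised Bayesian t-test used a local variance prior over 101 probesets of like level and a prior weight of 10. Both were tested on simulated data, drawn with the spread estimated for each probeset as its true spread. There the regularised test called more unchanged probesets than its threshold allows. No arrays were identical (correlations 0.9816 to 0.9937). The p-values set each group difference against the spread between isolates of a group, estimated partly from other probesets. They treat all isolates as independent.

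The genes and the 17 other lists were chosen with earlier results of these data known. Named were all measured genes of the set, with values on every array for the highest and lowest of each role (Slc27a2 was added after its values were seen), and up to 3 genes of the other lists with the largest absolute difference. Protein sequences were not used here.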

Additional observations from a re-analysis of the deposited data

How the results depend on the processing

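The median log2 fold change of the 38 genes (0.228) kept its sign under each alternative run. A higher mean was found in 33 or 34 genes, and in 31 of the 35 genes left when only probesets above the median level were kept. Alternatives were a block for the replicate number, an intensity trend, the regularised test, array weights, probesets above the median level, probesets with 1 symbol, median centring, cyclic loess, averaging the probesets of a gene, an adjusted p under 0.05 and each array left out. The count past an adjusted p under 0.01 was 0 in each limma fit and 2 in the regularised test. Without single arrays the median ran from 0.171 to 0.278, the count past the adjusted threshold from 0 to 0, the count at an unadjusted p under 0.05 from 8 to 19, and the count of genes without overlap from 17 to 27. Over all genes in these fits the share at an unadjusted p under 0.05 ran from 7.98% to 16.8%, and the share without overlap from 12.0% to 16.4% with PEC-enriched arrays above and from 12.8% to 17.7% with them below. Crot and Cpt2, both near 0, changed sign. Crot stood at 0.01 with cyclic loess and between -0.14 and 0.10 without single arrays, and Cpt2 at 7.09e-05 with array weights and between -0.09 and 0.07 without single arrays. With the replicate block 13 genes had an unadjusted p under 0.05. The share of all genes in that fit was not counted, so this count has no share to be read against. By their deviations from the group means, same-numbered arrays correlated at -0.0287, 0.0519 and 0.10, and differently numbered ones between -0.135 and 0.0827. Deviations from means of 3 arrays constrain each other, so these values cannot settle whether same-numbered isolates came from the same rat. Signal over background is unknown without scanner values. Cyclic loess moved the median of all genes from -0.02 to 0.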
